A study of Mus musculus with 12 samples.

Results

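Natural killer (NK) receptor genes were followed in T cells recovered from mice that had received Th1 cells, with or without a functional interleukin-23 receptor. The 10 genes were given as a fixed list (Klrd1, Klrc1, Klrk1, Klre1, Klra3, Klra9, Klrb1c, Klrg1, Cd160 and Cd244), all 10 were present among the 18601 genes of the matrix, and they were described in CD3-positive cells, defined as cells with at least 3 unique molecular identifiers (UMIs) summed over Cd3d, Cd3e and Cd3g. This threshold kept 29623 of 32763 cells. KO cells carried eGFP on both Il23r alleles (Il23reGFP/eGFP), and control cells carried eGFP on 1 allele beside a wild-type one (Il23rwt/eGFP), so eGFP was shared by both groups. Colon epithelium and small intestine lamina propria had 1 KO and 1 control library each, and colon lamina propria and spleen had 2 KO and 2 control libraries each, 12 in all. The deposited cell table calls the libraries with replicate number 2 batch 2 and those with number 1 batch 1; colon epithelium and small intestine were in batch 2 only. The strain, age and number of recipients, the time after transfer and any pooling of animals are not given in the sources used here.

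NK receptors are surface proteins that raise or lower the threshold at which a lymphocyte kills or secretes cytokine. Most are C-type lectin-like proteins encoded together in the NK gene complex, and several are also made by T cells after repeated stimulation and by lymphocytes of the gut epithelium. CD94 (Klrd1) forms an inhibitory receptor with NKG2A (Klrc1) that reads the class I molecule Qa-1 (H2-T23), whereas NKG2D (Klrk1) binds stress-induced ligands and signals through the adaptor DAP10 (Hcst). In the GRCm38 annotation of GENCODE, 8 of the 10 genes lie on chromosome 6. Klrg1 spans chr6:122270596-122282882, and the other 7 lie between the first base of Klrb1c at 128778485 and the last base of Klra3 at 130337574. Cd160 lies at chr3:96798763-96829351 on the minus strand, and Cd244, named Cd244a there, at chr1:171559193-171609746 on the plus strand.

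The libraries held 764 to 3653 CD3-positive cells with 1902990 to 13248318 UMIs, and 50.6% (small intestine KO) to 98.4% (colon epithelium control) of cells were CD3-positive. Median depth ran from 2273 to 5690 UMIs per CD3-positive cell. The labels call the cells CD4 T cells: 53.0% of CD3-positive cells had a Cd4 UMI and 1.95% a Cd8a or Cd8b1 UMI. Il23r, the altered gene, had 0.314 to 4.204 CPM in KO and 0.605 to 3.09 CPM in control libraries (CPM, a gene's UMIs divided by all UMIs of the library's CD3-positive cells and scaled to parts-per-million); it was counted from its 3′ end, which checks no genotype label. Batch 1 libraries measured 585 to 1004 CPM of Xist and batch 2 libraries 0 to 0.325 CPM. Any difference between the batches cannot be told apart from whatever else differed between them. Between any 2 libraries, at most 27 cell barcodes were shared.

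Klrc1, Klrk1, Klrd1 and Cd160 were the abundant members. Klrc1 had a UMI in 31.0% of CD3-positive cells, Klrk1 in 26.6%, Klrd1 in 25.9% and Cd160 in 18.2%. Klrg1 was found in 6.07% of the cells, Cd244 in 2.84%, Klre1 in 2.18%, Klra3 in 1.21%, Klrb1c in 1.04% and Klra9 in 0.111%. With each cell thinned to 1500 UMIs, which left 23681 cells, 49.5% of cells had a UMI of at least 1 of the 10 genes and 19.3% had at least 2. That first share was lowest in small intestine KO (22.8%) and highest in colon epithelium control (63.6%). In 89 cells with no CD3 UMI and markers of macrophages, epithelium or B cells (median 2292 UMIs, against 2869 UMIs in CD3-positive cells), Cd160 was seen in 4.49% of cells, Klrc1 and Klrk1 in 1.12% each, and the other 7 genes in none, which allows a share of up to 3.37%. Pooled over all libraries, the shares of Klre1, Klra3, Klrb1c, Klra9 and Cd244 are below that limit and cannot be set apart from free RNA by this comparison. Single libraries differed. Cd244 exceeded it in colon epithelium (7.16% KO, 8.40% control) and control small intestine (4.30%), and Klre1 (14.4%) and Klra3 (6.15%) did in spleen KO 1. Klrg1 lay below it in small intestine (1.60% KO, 2.51% control) and colon epithelium (2.85% KO, 2.90% control). In the 15383 CD3-positive cells that had a Cd4 UMI and no Cd8a or Cd8b1 UMI, levels were close to those in all CD3-positive cells: Klrc1 had 204 CPM there and 197 CPM in all, Klrd1 159 and 157 CPM, Klrk1 174 and 172 CPM, and Cd160 107 and 113 CPM.

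Near-identical relatives limit what the counts of some members mean, because the assay reads only transcript 3′ ends. Over the last 300 bases, Klra3 was 98.7% identical to Klra9 and 85.3% to Klra8, Klrc1 was 97.3% identical to Klrc3 and 97.0% to Klrc2, and Klrb1c was 92.3% identical to Klrb1a. Counts of Klra3, Klra9, Klrc1 and Klrb1c are therefore uncertain between these genes.

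**Figure D1:**
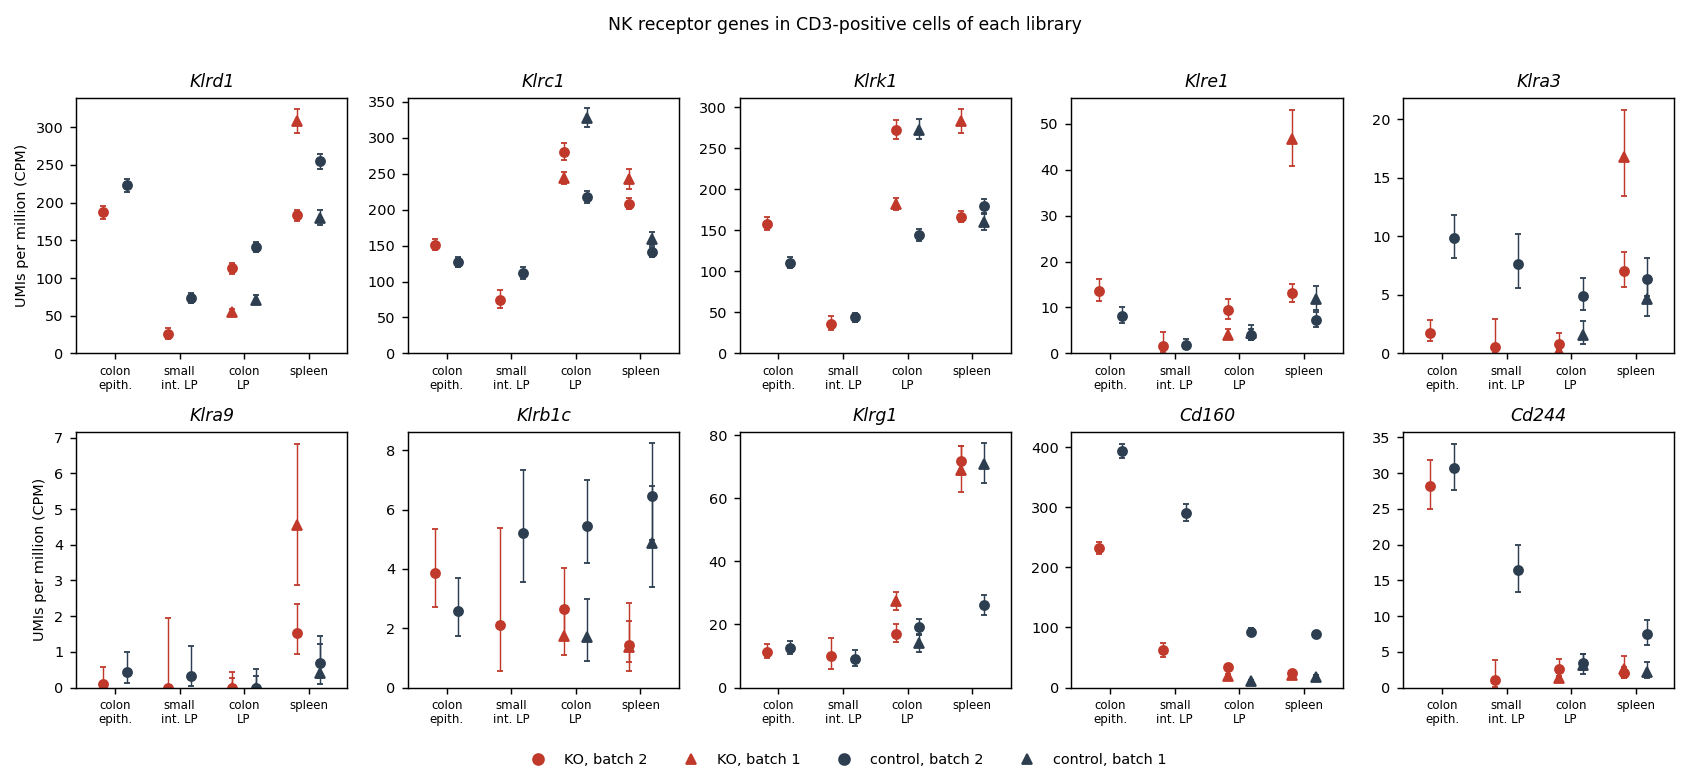
Level of each NK receptor gene in CD3-positive cells, in CPM, by tissue (LP, lamina propria; epith., epithelium; int., intestine), with KO left of control. Each point is 1 library with its exact Poisson 95% interval (counting error only), circles are batch 2 and triangles batch 1. Cd160 and Cd244 reach their highest levels in colon epithelium, Klrg1 in spleen, and Klrk1 is lowest in both small intestine libraries.

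In CD3-positive cells of colon epithelium, Cd160 and Cd244 rose and Klrc1 fell relative to colon lamina propria. CD160 binds the TNF receptor family member HVEM (Tnfrsf14), and CD244 (2B4) binds CD48. Cd160 had 232 CPM in the KO and 393 CPM in the control library of colon epithelium, against 20.003 and 34.1 CPM (KO) and 10.5 and 92.5 CPM (control) in colon lamina propria. The epithelial libraries both lay above all 4 of lamina propria. Its log2 fold change was 2.78 ± 0.75 (SE; edgeR's quasi-likelihood test, Benjamini-Hochberg adjusted p = 0.0365). Cd244 had 28.2 and 30.7 CPM in KO and control epithelium, against 1.28 and 2.65 CPM (KO) and 3.12 and 3.44 CPM (control) in colon lamina propria. The groups did not overlap, and the log2 fold change was 3.34 ± 0.50 (edgeR adjusted p = 0.00248). Klrc1 had 151 and 127 CPM in KO and control epithelium, against 244 and 280 CPM (KO) and 328 and 218 CPM (control) in colon lamina propria, again without overlap (log2 fold change -1.25 ± 0.27, edgeR adjusted p = 0.0105). Thus 3 of 10 members passed, 2 higher and 1 lower, where 19.4% of all 11305 genes passed (8.52% higher and 10.8% lower). Klrk1 had 158 and 111 CPM in epithelium, lay inside the range of lamina propria, 144 to 273 CPM, with 1 of its libraries, and missed the threshold (log2 fold change -1.01 ± 0.32, edgeR adjusted p = 0.0504). How many of all genes separated the 2 tissues without overlap was not counted.

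These epithelial calls rest on few libraries. Without the epithelial KO library 0 of the 3 passed, and without the epithelial control library only 1, Cd244, passed; the single remaining library was then assumed to vary like the other groups. The Cd160 call also ended without any 1 of 4 other libraries (KO 1 and KO 2 of spleen and of colon lamina propria; edgeR adjusted p = 0.0511 to 0.0919) and with no filter on low counts (0.0669). Within batch 2, the log2 fold changes were 2.28 ± 0.34 for Cd160 (edgeR adjusted p = 0.0138), 3.20 ± 0.71 for Cd244 (0.0519) and -1.03 ± 0.24 for Klrc1 (0.0393). Epithelial markers (Epcam, Krt8, Krt18, Krt19 and Cdh1) summed to 339 CPM in the epithelial KO library and 22.9 CPM in the epithelial control library, and their part in the result was not tested.

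Lists of genes around the receptors had unequal numbers of calls in colon epithelium against colon lamina propria, where 8.52% of all genes were higher and 10.8% lower. Of 18 other lectin genes of the NK complex in the matrix 8 were tested and 0 called, of 8 tested ligand genes 1 was higher and 0 lower, and of 10 tested adaptor and signalling genes 2 were higher (Ptpn6 and Vav1) and 1 lower (Sh2d2a). Of 12 effector genes 7 were higher and 2 lower (median log2 fold change 0.68, against 0.04 over all genes). The higher ones were the chemokine genes Ccl4 (3.83 ± 0.71), Ccl3 (3.73 ± 0.64) and Ccl5, the granule genes Gzma (1.93 ± 0.54), Prf1 and Nkg7, and Ctsw, and the lower ones were the granzyme inhibitor Serpinb9 (-3.66 ± 0.46) and the death ligand Fasl. Of 11 tested regulators 6 were lower and 0 higher, with the T-box factor Eomes at -2.76 ± 0.65 and Nfil3, which NK cell development needs, at -2.21 ± 0.36. Of 11 SLAM and nectin receptor genes 5 were higher and 2 lower. Among the higher were Crtam (2.42 ± 0.48), Cd226 (1.36 ± 0.27) and Cd48, the ligand of CD244 (1.09 ± 0.31), and the lower were Tigit (-2.89 ± 0.54) and Slamf6 (-1.38 ± 0.30).

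Between colon lamina propria and spleen, Klrc1 was higher in the colon, and Klrg1, Klrd1, Klre1 and Klra9 were lower. KLRG1 is an inhibitory receptor for cadherins that marks short-lived effector T cells. Klrg1 had 27.3 and 17.0 CPM (KO) and 14.1 and 19.1 CPM (control) in colon lamina propria, against 68.9 and 71.8 CPM (KO) and 71.0 and 26.1 CPM (control) in spleen (batch 1, then batch 2). The spleen control library of batch 2 lay within the range of the colon, the other 3 spleen libraries above it, and the log2 fold change was -1.40 ± 0.30 (edgeR adjusted p = 0.00518). Klrd1 had 55.0 and 113 CPM (KO) and 71.3 and 141 CPM (control) in colon lamina propria, against 308 and 183 CPM (KO) and 180 and 255 CPM (control) in spleen. Every spleen library lay above every colon library, a separation whose share over all genes was not counted (-1.13 ± 0.32, edgeR adjusted p = 0.0188). Its partner gene Klrc1 ran the other way, at 244 and 280 CPM (KO) and 328 and 218 CPM (control) in colon lamina propria against 242 and 208 CPM (KO) and 159 and 141 CPM (control) in spleen. The ranges overlapped at the spleen KO library of batch 1, and the log2 fold change was 0.74 ± 0.21 (edgeR adjusted p = 0.0173).

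Of the members with few counts, Klre1 and Klra9 were lower in the colon. Klre1 encodes a lectin-like receptor that pairs with KLRI proteins. It had 4.08 and 9.53 CPM (KO) and 4.40 and 3.97 CPM (control) in colon lamina propria, against 46.6 and 13.1 CPM (KO) and 11.9 and 7.26 CPM (control) in spleen (log2 fold change -1.52 ± 0.44, edgeR adjusted p = 0.0215). The ranges overlapped, since the spleen control library of batch 2 lay below the colon KO library of batch 2. Klra9 encodes a Ly49 receptor for class I molecules and had 0 UMIs in all 4 colon lamina propria libraries and 53 UMIs in spleen, so that its pooled level in spleen was at least 19.9-fold higher than a floor of 3 counts over the colon libraries together (0.075 CPM; edgeR adjusted p = 0.00675). Without spleen KO 1, which held 23 of these UMIs, that limit was 13.1-fold. In all, 5 of 10 members passed, 1 higher and 4 lower, where 37.6% of all genes passed (18.7% higher and 18.9% lower), so the members' share lies near that of all genes. Klra3, another Ly49 gene, missed the threshold (-2.43 ± 0.88, edgeR adjusted p = 0.0558).

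Of the 5 calls, Klrg1 held in each of 12 fits that left out 1 library, and Klra9 in each of the 10 in which it was tested. Klre1 lost its call without colon KO 1 (edgeR adjusted p = 0.0707) or colon control 2 (0.0502), Klrd1 without colon control 1 (0.0537) or colon KO 1 (0.0574), and Klrc1 without spleen control 1 (0.0545) or spleen control 2 (0.0511). With no filter on low counts, Klre1 (0.0652) and Klrd1 (0.0589) also missed the threshold, and Klre1 did so at equal depth per cell (0.139) and in cells with a Cd4 UMI and no Cd8a or Cd8b1 UMI (0.0502). Within batch 2 alone no member passed: the log2 fold changes were -1.18 ± 0.42 for Klrg1, 0.68 ± 0.24 for Klrc1, -0.61 ± 0.26 for Klrd1 and -0.47 ± 0.26 for Klre1. Each was smaller in size than over both batches, most so the last 2.

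Small intestine was set against colon lamina propria with 2 libraries. Klrk1 had 36.3 and 43.9 CPM in KO and control small intestine, against 182 and 273 CPM (KO) and 273 and 144 CPM (control) in colon lamina propria, with no overlap. The log2 fold change was -2.56 ± 0.36 (edgeR's quasi-likelihood test, adjusted p = 0.0533). Klrc1 had 74.6 and 111 CPM there, also below all 4 colon libraries (-1.65 ± 0.28, edgeR adjusted p = 0.111). With so few libraries, a lack of overlap arises often by chance, and its share over all genes was not counted. With edgeR, 0 of 10 members passed, where 0.00885% of all genes did (1 of 11305). At an unadjusted p under 0.05, 1279 genes stood out, and DESeq2 called both Klrk1 and Klrc1. By edgeR, Klrc1 passed at equal depth per cell (adjusted p = 0.0455), and calls appeared without colon control 2 (Klrk1 adjusted p = 0.0103, Klrc1 0.0365) and, for Klrk1, without spleen KO 1 (0.0386). In cells without NK marker UMIs neither gene passed (edgeR adjusted p = 0.0678 for Klrk1 and 0.138 for Klrc1). Cd160 had 62.0 CPM in the KO and 291 CPM in the control library, and Cd244 1.05 and 16.4 CPM, so the 2 small intestine libraries differed widely from each other.

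**Figure D2:**
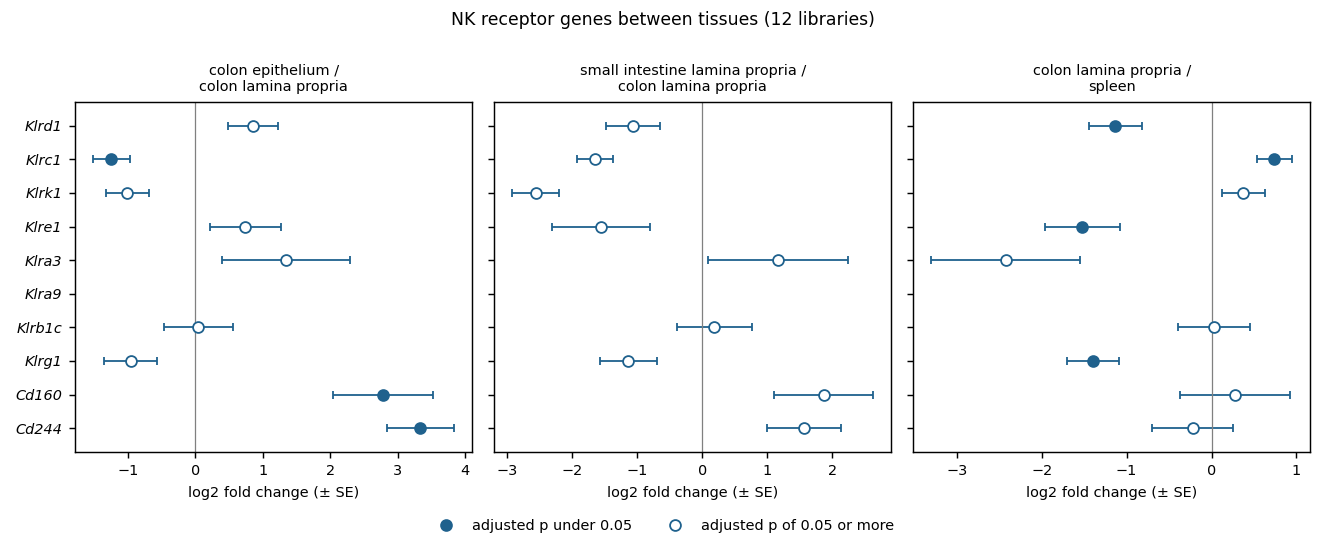
Log2 fold changes with standard errors (edgeR, 12 libraries with genotype as a further term) of the NK receptor genes in 3 comparisons between tissues; filled points have an adjusted p under 0.05. Klra9 is left out because it had no UMI in colon lamina propria. Cd160 and Cd244 stand highest in colon epithelium, and Klrg1 stands low in colon lamina propria against spleen.

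No member differed between KO and control cells at the threshold. Over the 6 pairs of libraries that share tissue and batch, the fit had tissue as a further term and no pair term. Adding the pairs as a block changed no member's call. Without that block, edgeR's quasi-likelihood test called 0 of 10 members and 0% of all 11305 genes. By edgeR, 525 genes had an unadjusted p under 0.05, and DESeq2 called 0 members and 7 genes in all. The values were -1.18 ± 0.53 for Cd160, -1.08 ± 0.74 for Klra3, -1.04 ± 0.39 for Cd244, 1.001 ± 0.38 for Klre1, -0.97 ± 0.37 for Klrb1c and 0.34 ± 0.26 for Klrg1, all with an adjusted p near 1. Klrb1c encodes NK1.1, an activating receptor. The abundant lectin-like genes had 0.21 ± 0.21 for Klrk1, 0.11 ± 0.17 for Klrc1 and -0.31 ± 0.26 for Klrd1. On simulated data with this design, the test recovered 93 of 100 genes changed 2-fold. The simulation gave every gene the same fixed spread and no tissue or batch differences. Members with values near 2-fold were not called here, so that recovery does not tell whether a 2-fold change of a member would be found.

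In colon lamina propria and spleen, where each genotype had 2 libraries, 0 of 10 members and 0% of all 10976 genes passed in either tissue; 123 genes in colon and 128 in spleen had an unadjusted edgeR p under 0.05, and DESeq2 called 0 genes in colon and 2 in spleen, none a member. Klra3 had 0.226 and 0.844 CPM in colon KO libraries, against 1.56 and 4.94 CPM in colon control libraries (batch 1, then batch 2; log2 fold change -2.67 ± 0.77, edgeR adjusted p near 1). In spleen Klra3 had 16.8 and 7.05 CPM in KO libraries against 4.60 and 6.36 CPM in control libraries (1.08 ± 0.60). In small intestine it had 0.525 CPM (1 UMI) in KO against 7.63 CPM in control cells, and in colon epithelium 1.78 CPM in KO against 9.85 CPM in control cells. The KO library was thus lower in all 4 gut pairs. In spleen of batch 1 it was higher (ratio of KO over control 3.65, exact 95% interval 2.41 to 5.63, counting error only). In spleen of batch 2 the ratio was 1.11 (0.797 to 1.55), an interval that holds 1. Klra3 counts may include reads of Klra9 and Klra8. With no filter on low counts, edgeR called Klra3 in colon (adjusted p = 0.000308) and Klre1, Cd160 and Klrb1c in spleen, among 83 and 70 genes in all.

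Klrb1c in spleen had 1.38 and 1.44 CPM in KO libraries, against 4.88 and 6.46 CPM in control libraries, without overlap (-2.02 ± 0.51, edgeR adjusted p near 1). Klre1 in spleen had 46.6 and 13.1 CPM in KO libraries, against 11.9 and 7.26 CPM in control libraries, also without overlap (1.62 ± 0.66, edgeR adjusted p near 1). With so few libraries, a lack of overlap arises often by chance, and its share over all genes was not counted. Klra9 had 4.54 and 1.52 CPM in spleen KO libraries, 23 and 20 UMIs, against 0.419 and 0.696 CPM in spleen control libraries. NK cell markers outside the members (Ncr1, Tyrobp, Fcer1g, Klrb1b, Klri2 and Eomes) summed to 45.1 to 159 CPM in KO libraries, with 6 of 6 found in each, and 6.14 to 59.2 CPM in control libraries, with 3 to 6 found. Eomes, also used below to split CD3-positive cells, had 5.87 to 47.3 CPM of this in KO and 1.38 to 19.3 CPM in control libraries. Ncr1 had 0.152 to 1.15 CPM in KO and 0 to 1.53 CPM in control libraries. Fcer1g had 7.24 to 92.1 CPM in KO and 0.259 to 24.0 CPM in control libraries, and Tyrobp 1.58 to 34.5 and 0 to 18.5 CPM. Fcer1g was higher in KO in every pair. Tyrobp was higher in KO in every pair but batch 1 of colon lamina propria (7.17 against 18.5 CPM). These markers did not all move alike, so the sums do not measure NK cell content, and its part was not tested. The spleen KO library of batch 1, with the highest Klre1 and Klrd1, had a marker sum of 159 CPM, and 20.9% of its CD3-positive cells had a UMI of Ncr1, Tyrobp or Fcer1g. Without the 720 such cells of all libraries, the spleen log2 differences were 2.07 ± 0.67 for Klre1 and -2.01 ± 0.69 for Klrb1c. Markers of other cells also differed in spleen. The 6 macrophage markers, all found in each library, summed to 144 and 34.4 CPM in KO libraries, against 24.3 and 11.3 CPM in control libraries (batch 1, then batch 2), with Lyz2 at 139 and 24.7 CPM in KO and 0.140 and 0.795 CPM in control libraries. Erythroid markers summed to 80.4 and 217 CPM in KO libraries (5 of 5 found), against 23.3 and 1.79 CPM in control libraries (5 and 3 of 5 found). Their part in the spleen differences of Klre1, Klrb1c and Klra3 was not tested. Fewer cells of a type and less RNA per cell cannot be told apart in these sums.

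The KO and control levels of Cd160 stood in opposite order in the batches. In batch 2 it had 232 CPM in KO against 393 CPM in control colon epithelium, 62.0 against 291 CPM in small intestine, 34.1 against 92.5 CPM in colon lamina propria and 24.2 against 88.5 CPM in spleen, so KO was lower in 4 of 4 pairs, by 0.76 to 2.23 on the log2 scale. In batch 1 KO had 20.003 against 10.5 CPM in colon lamina propria and 21.3 against 18.0 CPM in spleen, higher in 2 of 2 pairs. The spleen ratio of batch 1 was 1.19 with a counting interval of 0.909 to 1.54, which holds 1. The batch 1 levels lie near those of the 89 cells with no CD3 UMI, which had 19.4 CPM of Cd160 (6 UMIs, pooled over all libraries). Those cells had a UMI in 4.49% of cases (exact 95% interval 1.24% to 11.1%), and the batch 1 libraries in 3.62% to 7.72% of CD3-positive cells. The KO libraries of small intestine, colon lamina propria and spleen in batch 2, at 5.47% to 10.6% of cells, lie within the interval of 1.24% to 11.1% too. Free RNA was not measured per library, so these low levels are not set apart from it. The KO effect in batch 2 minus that in batch 1 was -2.10 ± 0.43 (edgeR adjusted p = 0.442), a comparison chosen after the values were seen. By edgeR, the batch 2 pairs alone gave -1.54 ± 0.24 (adjusted p = 0.0697) and the batch 1 pairs alone 0.56 ± 0.22 (adjusted p near 1). Within batch 2, Cd244 was also lower in KO in 4 of 4 pairs, from 28.2 against 30.7 CPM in colon epithelium to 1.05 against 16.4 CPM in small intestine, and Klrd1 in 4 of 4. The Cd244 ratio's 95% counting interval held 1 in colon epithelium (0.781 to 1.08) and colon lamina propria (0.436 to 1.33). In batch 1, KO was lower for both genes in colon lamina propria (Cd244 1.28 against 3.12 CPM, Klrd1 55.0 against 71.3 CPM). It was higher for both in spleen (2.57 against 2.23 CPM, 308 against 180 CPM). The share of all genes with such an order was not counted.

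The integrin gene Itgae also varied between these libraries. It had 167 CPM in KO against 201 CPM in control colon epithelium, 45.2 against 156 CPM in small intestine, 22.3 against 62.2 CPM in colon lamina propria of batch 2 and 4.02 against 19.5 CPM in spleen of batch 2. In batch 1 it had 15.6 against 17.9 CPM in colon lamina propria and 31.8 against 8.23 CPM in spleen. The part of Itgae-positive cells in the Cd160 difference was not tested. Between the batches themselves, over spleen and colon lamina propria, 0 of 10 members passed by edgeR, where 3.24% of all 10976 genes did (1.14% higher and 2.1% lower). 2215 genes had an unadjusted p under 0.05. Cd160 averaged 59.8 ± 35.7 CPM in batch 2 and 17.5 ± 4.83 CPM in batch 1 (SD, n = 4 each; log2 fold change 1.42 ± 0.52, edgeR adjusted p = 0.228), and it passed at equal depth per cell (1.59, adjusted p = 0.00899).

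**Figure D3:**
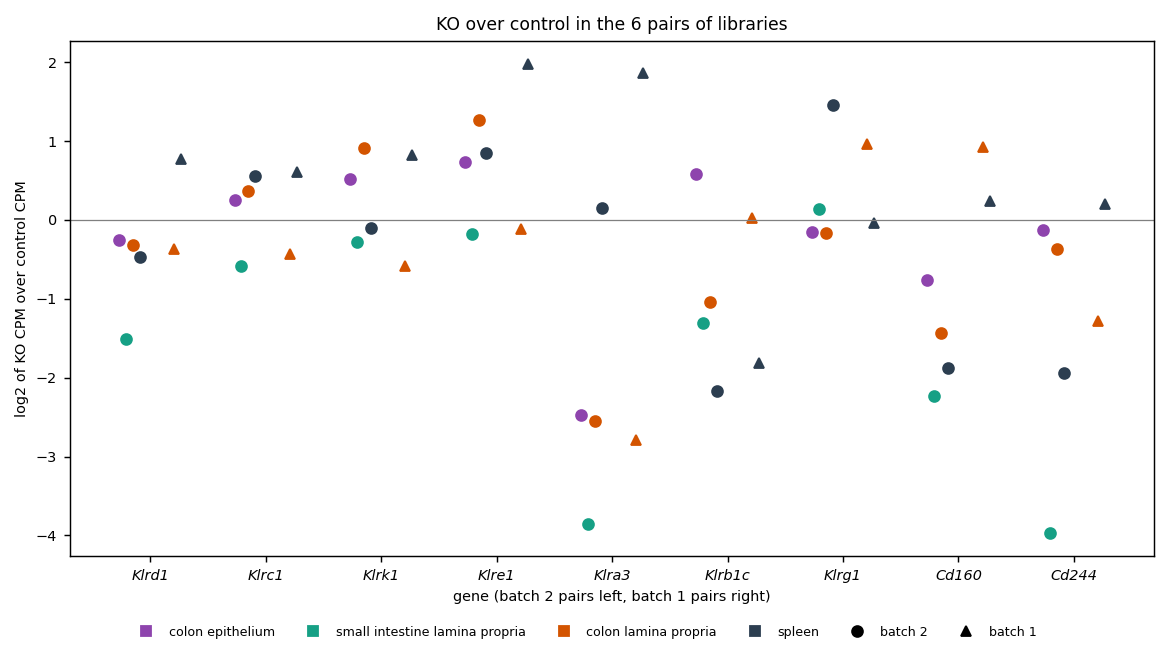
Log2 of KO over control CPM in the 6 pairs of libraries that share tissue and batch, for 9 NK receptor genes (Klra9 is left out because some libraries had none). Colours give the tissue, circles batch 2 and triangles batch 1. Cd160 lies below 0 in all 4 batch 2 pairs and above 0 in both batch 1 pairs, and Klra3 lies below 0 in the gut and above 0 in spleen. Counting intervals are not drawn, and those of Klra3 in spleen of batch 2 and Cd160 in spleen of batch 1 reach both sides of 0.

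Subsets of CD3-positive cells were compared within each library, so that tissue, genotype and batch were held fixed. The members, gene lists and markers were chosen with earlier results of these data known. Shares and p-values here and in the other marker comparisons below are therefore a description, not independent support. Cells with a UMI of Itgae, the integrin chain that binds epithelial E-cadherin, made up 4234 of the 29623 cells. Itgae-positive cells had more Cd160 in 11 of 12 libraries, with a lowest value of 17.5, a median of 117 and a highest of 521 CPM, against 7.93, 41.8 and 302 CPM in Itgae-negative cells (log2 fold change 1.06 ± 0.10, edgeR adjusted p = 1.02e-05). Cd244 was higher in 10 of 12 libraries, with a median of 10.8 CPM in Itgae-positive and 2.64 CPM in Itgae-negative cells (1.19 ± 0.15, edgeR adjusted p = 2.3e-07). Klrk1 was lower in 11 of 12 libraries, with medians of 131 and 173 CPM in positive and negative cells (-0.45 ± 0.12, edgeR adjusted p = 0.047), a call that ended without any 1 of 10 libraries (0.0502 to 0.121) and with DESeq2's size factors (0.0831). In all 3 of 9 tested members passed, 2 higher and 1 lower, where 6.43% of all genes passed (1.91% higher and 4.51% lower). With DESeq2's size factors the split of all genes was 302 higher and 367 lower, against 207 and 489 with edgeR's TMM scaling, and Cd160 and Cd244 were called under both. Of 12 effector genes 3 were higher, Gzma (1.11 ± 0.21), Gzmb (0.90 ± 0.10) and Ctsw, and 3 lower, Ifng, Fasl and Serpinb9, in Itgae-positive cells. Of 11 tested regulators 0 were higher and 4 lower, with Eomes at -2.67 ± 0.23, and of 11 SLAM and nectin receptor genes 3 were higher and 4 lower.

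Cells with a UMI of Cx3cr1 or S1pr5, which encode a chemokine receptor and an egress receptor of terminal effector cells, had more of 7 of the 10 NK receptor genes. At least 20 such cells were present in 6 libraries, the 4 of spleen and both of colon epithelium (824 positive and 15289 negative cells). Klrg1 had a lowest value of 17.0, a median of 159 and a highest of 360 CPM in positive cells, against 11.1, 29.3 and 55.1 CPM in negative cells, and was higher in 6 of 6 libraries (2.30 ± 0.16, edgeR adjusted p = 7.28e-07). The difference was small in colon epithelium, with 26.2 and 17.0 CPM in positive against 11.1 and 12.3 CPM in negative cells. In all 7 of 10 members passed, all higher, where 5.84% of all genes passed (2.27% higher and 3.57% lower). Since members and markers were chosen with earlier results known, these shares are a description only. Klra9, higher in 4 of 6 libraries, rose by 3.90 ± 0.54, Klra3 by 2.22 ± 0.31, Klrb1c by 2.03 ± 0.38, Klrd1 by 0.94 ± 0.10, Klrk1 by 0.80 ± 0.08 and Klrc1 by 0.63 ± 0.09. Klre1 had 2.74 ± 0.59 and missed the threshold (edgeR adjusted p = 0.073), and it passed at equal depth (8.02e-18). Of 10 tested regulators 2 were higher, Zeb2 (3.16 ± 0.59) and Tbx21 (0.72 ± 0.15), both of terminal effector differentiation, and 2 lower, Tcf7 (-0.76 ± 0.13) and Ikzf2 (-1.25 ± 0.27). Of 12 effector genes 3 were higher and 0 lower, and of 11 SLAM and nectin receptor genes 3 were higher and 2 lower.

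Eomes split the family. Cells with an Eomes UMI (1107 positive and 24863 negative cells in 11 libraries) had more Klrg1 and less Klrd1, Klrc1, Klrk1 and Klre1. Klrg1 had a lowest value of 49.2, a median of 93.4 and a highest of 222 CPM in positive cells, against 6.25, 17.4 and 60.8 CPM in negative cells (2.12 ± 0.12, edgeR adjusted p = 3.68e-27), higher in 11 of 11 libraries. Klrk1 had a median of 45.5 CPM in positive and 181 CPM in negative cells (-1.76 ± 0.20, edgeR adjusted p = 5.27e-05). Klrd1 had medians of 54.9 and 142 CPM in positive and negative cells (-1.41 ± 0.16, edgeR adjusted p = 1.46e-06). Klrc1 had medians of 74.8 and 218 CPM (-1.38 ± 0.18), and Klre1, with 20 UMIs in positive cells in all, changed by -1.54 ± 0.32. These 4 were lower in 11 of 11 libraries, and the 5 calls held without any 1 library. Of 9 tested members 1 was higher and 4 lower, where 11.9% of all genes passed (3.47% higher and 8.46% lower). With DESeq2's size factors 436 genes were higher and 579 lower, against 339 and 827 with edgeR's TMM scaling, and 5 members were called under either. In the same cells 6 of 12 effector genes were higher, among them Gzmk (3.41 ± 0.16) and Prf1 (2.50 ± 0.35), and 1, Ctsw (-0.57 ± 0.07), was lower. Of 11 SLAM and nectin receptor genes 2 were higher, Crtam (3.08 ± 0.26) and Ly9, and 4 lower, Cd226 (-1.18 ± 0.15), Slamf1 (-1.09 ± 0.13), Cd96 and Btla. Of 9 tested regulators 0 were higher and 4 lower (Tbx21, Id2, Tcf7 and Bhlhe40), and of 10 tested adaptor and signalling genes 3 were higher, with Sh2d1a, the adaptor of SLAM family receptors, at 1.24 ± 0.07, and 1 lower. The other NK complex lectin genes had 0 higher and 2 lower of 6 tested, and the ligand genes 0 higher and 2 lower of 7.

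Cells with a Cd8a or Cd8b1 UMI were few (560 positive and 26867 negative cells in 10 libraries). Cd160 had a median of 137 CPM in positive and 60.3 CPM in negative cells and was higher in 8 of 10 libraries (0.77 ± 0.09, edgeR adjusted p = 8.18e-13). Cd244 was higher in 9 of 10 libraries (1.14 ± 0.25, edgeR adjusted p = 0.00199). The Cd160 call ended with a CD3 threshold of 1 UMI (adjusted p = 0.175). The Cd244 call ended at equal depth (adjusted p = 0.59) and without the colon epithelium KO library (0.0745). Thus 2 of 10 members passed, both higher, where 1.01% of all genes did (0.131% higher and 0.877% lower). With DESeq2's size factors 25 genes were higher and 35 lower, against 14 and 94 with edgeR's TMM scaling. A cell that lacks a UMI of a marker may still express it, so each negative group holds some positive cells.

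**Figure D4:**
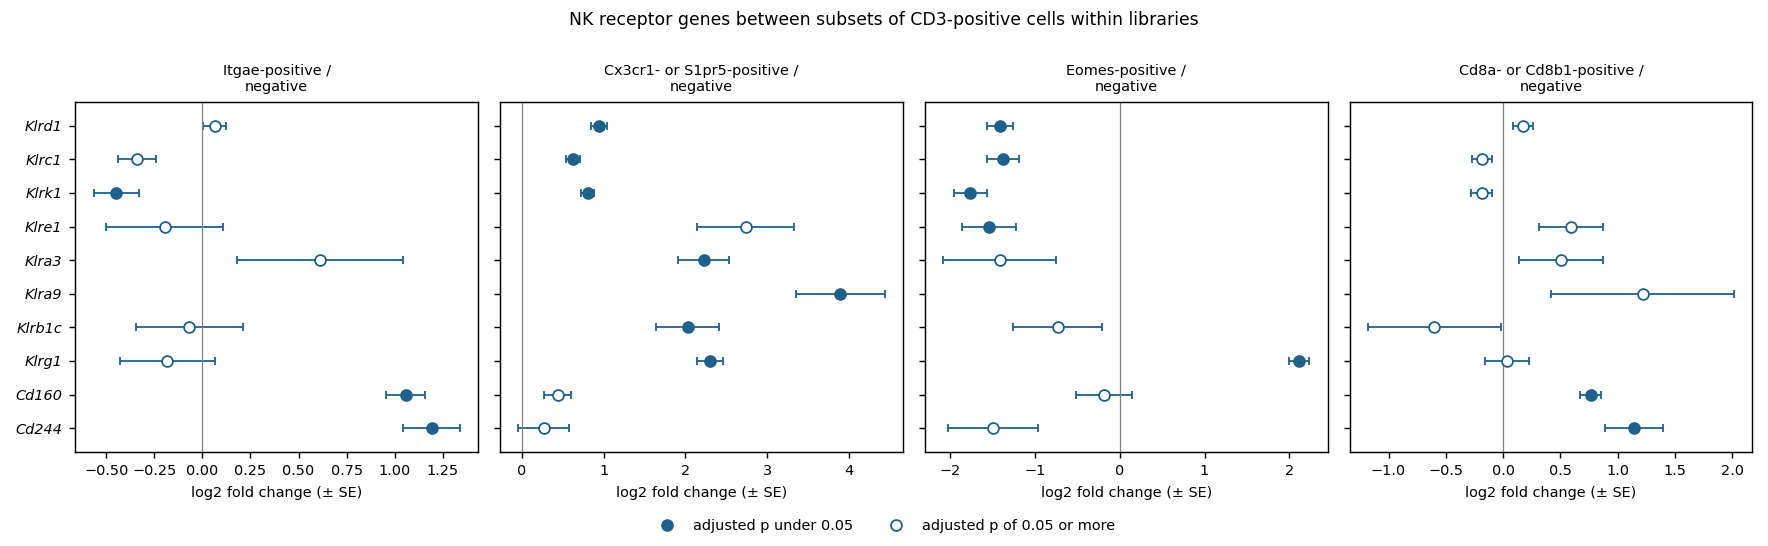
Log2 fold changes with standard errors (edgeR, library as a block) of the NK receptor genes between CD3-positive cells with and without a UMI of Itgae, of Cx3cr1 or S1pr5, of Eomes, and of Cd8a or Cd8b1; filled points have an adjusted p under 0.05. Klra9 is left out where it was not tested. Klrg1 is higher in Cx3cr1- or S1pr5-positive and in Eomes-positive cells, whereas Klrd1, Klrc1 and Klrk1 are higher in the first and lower in the second.

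Within single cells at 1500 UMIs, Klrd1, Klrc1 and Klrk1 were found together, as were Cd160 and Cd244, while other pairs of members were not all alike. Klrc1 was found in 40.8% of cells with Klrk1 and in 15.996% of cells without it. Klrk1 was found in 36.6% of cells with Klrd1 and 13.7% of those without. Klrd1 was found in 56.8% of the 296 cells with Klre1, against 16.6% of the others. Cd160 was found in 43.1% of the 357 cells with Cd244 and 12.4% of the others, and in 8.39% of cells with Klrk1, against 13.9% of cells without. Among rarer lectin-like genes, Cd160 was found in 33.0% of the 176 cells with Klra3 (12.8% of the others) and 23.3% of the 116 cells with Klrb1c (12.9% of the others). Klrc1 shares were near each other in cells with and without Klrg1 (20.7% and 20.4%) and in cells with and without Klrb1c (21.6% and 20.4%). These shares pool cells of all libraries, which differ in tissue, and they are given as a description without a test.

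**Figure D5:**
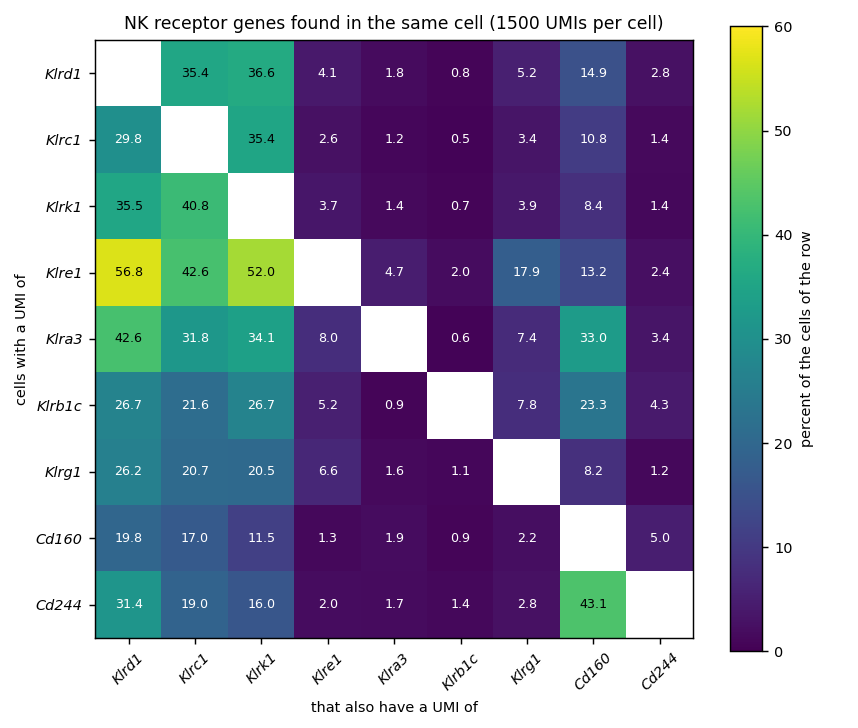
Percent of the cells with a UMI of the row gene that also have a UMI of the column gene, among 23681 CD3-positive cells thinned to 1500 UMIs, for 9 NK receptor genes. Klrd1, Klrc1 and Klrk1 fill the upper left block, and Cd160 reaches 43.1% in the Cd244 row.

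Likeness of profiles was measured as the root mean square difference between log2(CPM + 1) values centred over the 12 libraries, among 6762 genes with a mean of at least 10 CPM. Klrk1 was most like Klrc1 (0.47), then Ifitm2 and Lgals3. Klrc1 was most like Ifitm2 (0.27), Ahnak and Atp2b1, Klrd1 like S100a6 (0.42), Commd5 and Ccne1, and Klre1 like Sun1 (0.60), Smpdl3b and Ccdc109b. Klrg1 was most like Serpini1 (0.41), Car5b and Ifitm3. The nearest gene to Cd160 lay at 0.77 (RP24-484I1.3), followed by the granzyme gene Gzma (0.82) and Apol9b. These distances grow with a gene's own spread, and the root mean square of the centred profile was 1.63 for Cd160, against 0.59 to 1.12 for the other 5 members that reached 10 CPM, so distances are not compared between members.

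The promoters of Cd160 and Klrk1 are shown because these genes were called in opposite directions between Itgae-positive and Itgae-negative cells. RefSeq promoters (GRCm38.p6, 250 bases before to 50 after a start) matched 8 of the 10 genes. They were searched on both strands for 2 motifs that do not overlap, GGTGTGA, read by T-box factors such as EOMES (in 3.98% of 32851 promoters), and TGTGGTT, read by RUNX factors (in 5.27%). The first Cd160 start (chr3:96829302-96829601, minus strand) held the RUNX letters in reverse (AACCACA). The second (chr3:96814472-96814771, minus strand) held both motifs, and the Klrk1 start (chr6:129623815-129624114, minus strand) held the RUNX letters, as did 1 of 2 starts of Klre1. Capitals mark the matches, which describe letters only.
Cd160, first start: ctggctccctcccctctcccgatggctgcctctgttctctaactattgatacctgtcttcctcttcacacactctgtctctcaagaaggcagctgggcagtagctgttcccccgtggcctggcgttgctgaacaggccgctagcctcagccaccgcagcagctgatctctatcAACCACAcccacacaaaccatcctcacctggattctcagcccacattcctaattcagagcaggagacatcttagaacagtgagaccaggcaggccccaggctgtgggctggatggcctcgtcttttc
Cd160, second start: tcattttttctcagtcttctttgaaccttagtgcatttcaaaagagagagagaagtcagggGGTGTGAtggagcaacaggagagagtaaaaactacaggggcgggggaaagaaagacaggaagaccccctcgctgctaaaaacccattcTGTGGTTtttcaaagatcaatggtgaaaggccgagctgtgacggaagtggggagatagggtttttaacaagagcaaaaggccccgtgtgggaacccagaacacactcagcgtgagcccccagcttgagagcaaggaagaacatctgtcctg
Klrk1: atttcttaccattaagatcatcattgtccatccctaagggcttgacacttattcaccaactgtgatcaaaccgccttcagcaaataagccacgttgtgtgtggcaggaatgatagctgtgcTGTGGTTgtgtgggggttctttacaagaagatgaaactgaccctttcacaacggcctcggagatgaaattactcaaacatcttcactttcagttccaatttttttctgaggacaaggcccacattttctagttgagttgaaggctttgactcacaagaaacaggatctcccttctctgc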

How the data were processed

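Single-cell RNA libraries were made with 10x Chromium 3′ reagents (v2), per the labels' protocols, and Cell Ranger 2.0.2 and the mm10 build are named in the submitters' processing notes; how cells and genes were filtered is not stated. Raw UMI counts per gene and cell were deposited by the authors for all 12 libraries in 1 table, with a cell table that gives library and batch; for all 32763 cells the batch equals the library's replicate number. No doublet caller was run.

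UMIs of CD3-positive cells were summed per library and tested with edgeR 4.0.16 in R 4.3.3 (filterByExpr, TMM, robust quasi-likelihood fit), with Benjamini-Hochberg adjustment over all genes tested and a threshold of 0.05. KO was set against control within colon lamina propria and spleen (8 libraries), and over the 6 pairs with tissue as a term (12 libraries); tissues were compared in the same 12 libraries with genotype as a term. Marker-positive and marker-negative cells were compared with the library as a block where both sides had at least 20 cells. Summaries used Python 3.11.15, pandas 2.3.3, numpy 2.4.6 and scipy 1.17.1, transcript ends were aligned with biopython 1.88, and DESeq2 1.42.0 was an alternative. The method was tested on simulated data, where it recovered 44 of 100 genes changed 2-fold and 98 of 100 changed 4-fold with the 8 libraries of the genotype comparison in colon lamina propria. Those data had the same fixed spread for every gene and no tissue or batch differences, and genes with few counts were left unchanged. The recovery therefore does not tell whether such a change of a member would be found.

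Libraries with the same replicate number deviated together, with correlations of 0.240 to 0.463 in all 6 pairs of groups. The numbers were therefore taken to pair the libraries in an alternative with a replicate block. The main fits of genotype and tissue had no replicate term, so batch differences count towards their spread. The labels do not say that libraries came from separate animals, so p-values measure the spread between these libraries. Poisson intervals, shares and floors cover counting error only, at a confidence level of 95%. The 10 members, the gene lists and the marker subsets were chosen with earlier results of these data known. All 10 members are named; from each list, the genes named passed the test in the comparison described. Other alternatives were the CD3 threshold (1 or 5 UMIs), all cells, cells with a Cd4 UMI and no Cd8a or Cd8b1 UMI, cells without NK marker UMIs, thinning to 1500 UMIs, DESeq2's size factors, no filter on low counts, the replicate block, libraries of replicate 2 alone and leaving out each library.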

Additional observations from a re-analysis of the deposited data

Results flagged for a closer look

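The KO and control levels of Klra3 stood in opposite order in colon lamina propria and spleen, and the difference of the KO effects missed the threshold. That log2 difference, colon lamina propria minus spleen, was -3.75 (SE 0.97, edgeR's quasi-likelihood test, adjusted p near 1). The KO library was lower in both colon pairs, at -2.79 and -2.55, and higher in both spleen pairs, at 1.87 and 0.15 (log2 of KO over control). The smaller spleen value, of batch 2, is a ratio of 1.11 with a counting interval of 0.797 to 1.55, so its direction is not settled. Klra3 had few UMIs and shares its 3′ end with Klra9.

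The KO and control levels of Cd160 stood in opposite order in the batches. The difference of the KO effects, batch 2 minus batch 1, was -2.10 (SE 0.43, edgeR adjusted p = 0.442) and missed the threshold. The 4 pairs of batch 2 ran from -2.23 to -0.76 and the 2 pairs of batch 1 from 0.25 (spleen, ratio 1.19, counting interval 0.909 to 1.54) to 0.93. The adjusted p was 0.0426 without the colon epithelium control library and 0.0508 without the colon epithelium KO library. The batch 1 levels, 10.5 to 21.3 CPM, are not set apart from the 19.4 CPM in cells with no CD3 UMI (6 UMIs, pooled over all libraries). The tissues sampled also differ between the batches, and their part was not tested.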

How the results depend on the processing

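For single members, 918 values kept direction and side of the threshold under other settings, 16 lost a call, 22 gained one and 34 changed sign, and 1086, 26, 20 and 76 did so when 1 library was left out. The batch-wise fits and the comparison of KO effects between batches were chosen after seeing the data. The replicate block changed no member's call. The cause of the changes below was not tested.

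Counts of members past the threshold moved as follows. With no filter on low counts they were 1 for KO in colon lamina propria, 3 for KO in spleen, 1 for the difference of those effects, 3 for colon lamina propria against spleen and 2 for small intestine. At equal depth they were 3 for colon lamina propria against spleen, 1 for small intestine, 1 between batches and 1 for Cd8a. Colon lamina propria against spleen had 3 in Cd4-positive cells and 0 within replicate 2. DESeq2 gave 2 for small intestine and 6 for colon epithelium, and a CD3 threshold of 1 UMI gave 1 for Cd8a.

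The log2 fold changes that changed sign were all uncalled. With a CD3 threshold of 1 UMI they were -0.0021 (Cd160, KO effect in colon minus spleen), -0.095 (Cd244, batches) and -0.033 (Cd160, colon against spleen), and with 5 UMIs -0.016 (Klrg1, Cd8a), -0.0052 (Klrd1, Itgae) and -0.026 (Klrg1, KO effect in colon minus spleen). In Cd4-positive cells they were 0.018 (Klrc1, KO in colon) and -0.31 (Klrb1c, epithelium). In all cells they were -0.015 (Klrc1, KO over the 6 pairs), 0.0011 (Cd244, KO in spleen), -0.11, -0.13 and -0.036 (Cd160, Cd244 and Klrg1, KO effect in colon minus spleen), -0.53 and -0.12 (Cd244 and Klrb1c, batches), -0.29 (Klrb1c, epithelium) and -0.31 (Cd160, colon against spleen). Batch 1 alone gave KO values of 0.56 (Cd160), 0.65 (Klra3) and 0.19 (Klrd1). At equal depth they were -6.85 and -0.12 (Klra3 and Klrd1, Cd8a), -0.49 (Klra3, batches), and for Klrb1c -0.056 (colon against spleen) and -0.65 (small intestine). Within replicate 2, Klrb1c gave -0.37 (epithelium) and -0.15 (small intestine). Without NK marker UMIs they were -0.064 (Klrg1, Cd8a), -0.15 (Klrg1, KO effect in colon minus spleen) and -0.11 (Klrb1c, colon against spleen). The replicate block, which the pairing of libraries allows, gave -0.25 (Klrg1, KO effect in colon minus spleen) and for Klrb1c -0.19 (epithelium), -0.0033 (colon against spleen) and -0.0039 (small intestine).

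With 1 library left out, counts of members ranged from 3 to 5 (colon against spleen), 0 to 2 (small intestine), 0 to 4 (epithelium), 2 to 5 (Itgae) and 1 to 3 (Cd8a). Log2 fold changes for KO in colon ranged from -0.011 to 0.86 (Klrg1), -0.78 to 0.098 (Klrd1), -1.19 to 0.23 (Klrb1c), -0.43 to 0.42 (Klrc1), -0.39 to 0.79 (Klrk1) and -1.64 to 1.23 (Cd160). For KO in spleen they ranged from -0.094 to 1.43 (Klrg1), -0.31 to 0.53 (Klrd1), -0.091 to 0.76 (Klrk1) and -1.95 to 0.26 (Cd160). For the KO effect in colon minus spleen they ranged from -0.95 to 0.59 (Klrg1), -1.61 to 0.29 (Klre1), -0.94 to 0.0046 (Klrd1), -0.78 to 0.41 (Klrk1), -1.08 to 2.45 (Cd160) and -0.66 to 1.001 (Cd244). Colon against spleen gave -0.22 to 0.31 (Klrb1c), -0.18 to 0.76 (Cd160) and -0.47 to 0.22 (Cd244), and small intestine -1.31 to 2.19 (Klra3), -0.0996 to 0.45 (Klrb1c) and -0.97 to 2.17 (Cd244). Klrb1c in epithelium ranged from -1.002 to 0.82. The KO effect in batch 2 minus batch 1 ranged from -0.56 to 0.48 (Klrg1), -1.09 to 0.96 (Klre1), -3.42 to 1.13 (Klra3), -0.96 to 0.91 (Klrb1c), -0.39 to 0.60 (Klrc1), -0.49 to 0.88 (Klrk1) and -1.24 to 0.21 (Cd244). Batches gave -0.27 to 0.95 (Klra3) and -1.59 to 0.60 (Klra9), Itgae -0.48 to 0.19 (Klre1) and -0.39 to 0.044 (Klrb1c), and Cd8a -0.15 to 0.16 (Klrg1).

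Over all genes, leaving out 1 library gave 230 to 2843 calls for epithelium (2188 in full), 0 to 63 for small intestine (1), 112 to 474 between batches (356), 360 to 770 for Cx3cr1 or S1pr5 (569), 64 to 177 for Cd8a (108), and 0 to 39 for the KO effect between batches (0). Other settings gave up to 73 calls for KO over the 6 pairs, 2435 to 5046 for colon against spleen (4252), 1360 to 3210 for epithelium, up to 160 for small intestine, up to 1056 between batches, 142 to 930 for Itgae (696), 235 to 657 for Cx3cr1 or S1pr5, 558 to 1476 for Eomes (1166) and 25 to 305 for Cd8a. Depth limits Klra9, Klra3 and Klrb1c most, with 61, 531 and 348 UMIs in all.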
